A study of Mus musculus with 6 samples.

Results

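The 10 genes described here encode the core machinery that breaks down triglyceride and coats the lipid droplet in brown adipose tissue (BAT). They were chosen by gene symbol from the deposited count table, as 10 of its 35976 rows, and all 10 passed the expression filter that left 14542 genes for testing. Libraries came from the BAT of 3 wild-type (WT) mice and 3 sST2-KO mice, all on the C57BL/6J background and 10 weeks old. In the sST2-KO line, CRISPR/Cas9 was used to remove the intron of Il1rl1 that holds the stop codon of soluble ST2 (sST2), a secreted decoy form of the IL-33 receptor, while the membrane form ST2L was left in place. The deletion is present in the whole body, and WT littermates served as controls. The sympathetic nerves to BAT had been cut surgically in all 6 mice, so neither group had innervated BAT, and all 6 were then exposed to 10 °C for 8 h. The comparison asks how the BAT transcriptome differs without sST2 when noradrenaline from local nerves is lacking. RNA came from whole pieces of tissue, so fewer cells of a type and less RNA per cell cannot be told apart.

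Triglyceride in an adipocyte is stored in a droplet bounded by a layer of phospholipid and coat proteins. Its breakdown runs in sequence: ATGL, the product of Pnpla2, removes the first fatty acid, HSL, the product of Lipe, acts mainly on the diglyceride that remains, and MGL, the product of Mgll, releases the last fatty acid and glycerol. ATGL is activated by its cofactor CGI-58 (Abhd5) and inhibited by G0S2 (G0s2). In resting adipocytes perilipin 1 (Plin1) holds CGI-58 at the droplet surface, and protein kinase A phosphorylates both perilipin 1 and HSL after β-adrenergic stimulation. Brown adipocytes burn the fatty acids that are freed, and these also activate uncoupling protein 1. Much of this control acts on proteins, so levels of mRNA do not measure the rate of lipolysis.

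The libraries held between 8159442 and 12874809 counts, and the 10 genes had from 141 counts (Plin5 in sST2-KO replicate 3) to 55294 counts (Pnpla2 in WT replicate 2) in a library. Levels are given as CPM, counts normalized to library size with edgeR's TMM factors, and values of single libraries always run from replicate 1 to replicate 3. For Il1rl1, the targeted gene, 19, 19 and 6 reads were counted in the WT libraries against 55, 69 and 142 in the sST2-KO libraries, a rise of 2.56 on the log2 scale (adjusted p = 0.0239 by edgeR). The 2 forms, sST2 and ST2L, are not separated in these counts, so the genotype was not checked by them. Brown adipocyte markers were present in both groups and lower in sST2-KO BAT: the summed level of 12 brown adipocyte markers was 8669 to 16250 CPM in WT and 369.7 to 1923 CPM in sST2-KO, and 9 of the 12 fell. Ucp1 fell from 7404 ± 2770 CPM to 452 ± 511 CPM (SD, n = 3), whereas Zic1, a marker of the interscapular brown fat lineage, had 7.49 ± 1.59 CPM and 11.95 ± 4.88 CPM (adjusted p = 0.2). For 12 general adipocyte markers the summed level was 19740 to 25840 CPM in WT and 7210 to 12640 CPM in sST2-KO, and 4 of the 12 fell. Several markers of other cells moved the opposite way: 8 of 9 T cell markers and 3 of 12 macrophage markers rose, and all 15 skeletal muscle markers were higher in the 3 sST2-KO libraries without overlap, 2 of them past the test. Across all genes tested, 9.10% were called lower and 10.5% higher, and the share that was higher without overlap was not computed. The summed muscle level was 8.26 to 1407 CPM in WT and 3955 to 17050 CPM in sST2-KO, that of macrophages 845 to 1180 CPM and 1526 to 6335 CPM, and that of T cells 38.2 to 53.4 CPM and 199 to 283 CPM. The highest sums of all 3 lists were in sST2-KO replicate 3. There Lyz2, named after its values were seen, had 3383 of the 6335 CPM of the macrophage sum. Of the 12 macrophage markers, 5 were higher without overlap, and 1 had a log2 fold change below 0. The summed levels of 10 neutrophil markers were 32.6 to 157 CPM and 155 to 722 CPM, with 3 of 10 higher past the test, those of 10 endothelial markers 1619 to 2119 CPM and 1337 to 2439 CPM, with 1 higher and 1 lower, and those of 10 fibroblast markers 2075 to 6381 CPM and 1183 to 10230 CPM, with none past the test. Of 10 markers of lipid-associated macrophages 3 rose and 1 fell. The gene that fell was Lpl, which is also on the adipocyte list and made up most of the sum (4417 to 7478 CPM in WT and 1075 to 2587 CPM in sST2-KO), and the other 9 summed to 172 to 229 CPM in WT and 289 to 707 CPM in sST2-KO. Liver transcripts stood out in WT replicate 2, where Alb, the albumin gene, had 3192 CPM against 1.31 to 23.7 CPM in the other 5 libraries. Of 12 liver markers 5 were tested and 2 of them, Alb and Cyp2e1, were lower past the test. Cyp2e1, named after its values were seen, was not highest in WT replicate 2. It had 396.2, 336.0 and 243.9 CPM in WT and 79.45, 72.62 and 59.15 CPM in sST2-KO. No marker was at 0 in every library, and the part of these shifts in the results below was not tested.

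All 10 genes had lower mean levels in sST2-KO BAT. With edgeR's quasi-likelihood test and adjustment over all 14542 genes, 3 of the 10 fell: Mgll, Abhd5 and Plin5. Across all genes tested, 9.10% were called lower in the same way and 10.5% higher, and none of the 10 was called higher, also at an unadjusted p or with DESeq2. The same 3 genes fell by more than 2-fold, where the share of all genes was 7.10%. At an unadjusted p under 0.05, 7 of the 10 were lower, against 16.7% of all genes, and DESeq2 called the same number at an adjusted p under 0.05, against 10.9% of the genes it tested. The additional 4 genes were Pnpla2, Lipe, Plin1 and Plin2. For 6 genes all sST2-KO values were under all WT values, as they were for 19.7% of all genes, and the groups overlapped for G0s2, Plin2, Plin4 and Cidec. The median log2 fold change of the 10 was -1.11, against 0.03 over all genes tested. The calls depended on single WT libraries: without WT replicate 2 or without WT replicate 3, none of the 10 was called by edgeR at an adjusted p, and 4 were lower at an unadjusted p in each case, against 13.9% and 11.5% of all genes tested in these fits.

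**Figure D1:**
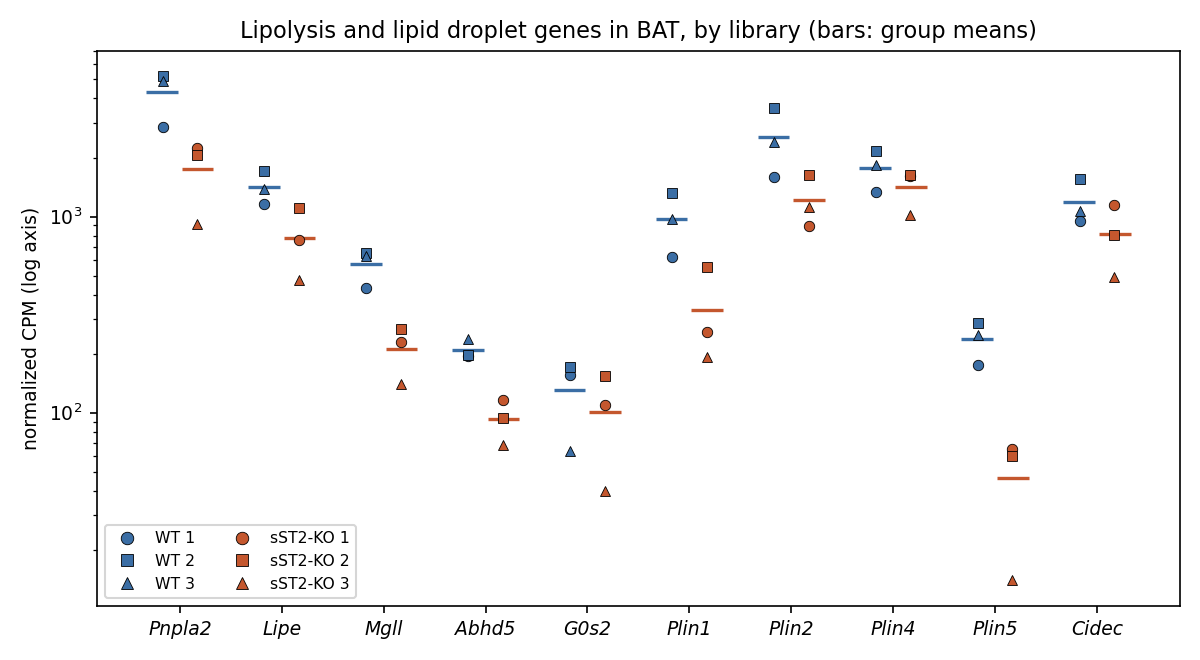
Normalized CPM (log axis) of the 10 genes in each library, with WT in blue, sST2-KO in orange, a marker shape for each replicate number and bars at the group means. For 9 of the 10 genes the highest point is WT replicate 2 and for 9 of the 10 the lowest is sST2-KO replicate 3.

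The libraries kept much the same order from gene to gene. WT replicate 2 was the highest of all 6 libraries for 9 of the 10 genes, and sST2-KO replicate 3 was the lowest for 9 of the 10. The exceptions were Abhd5, highest in WT replicate 3, and Plin2, lowest in sST2-KO replicate 1. Together the 10 genes took 0.944%, 1.54% and 1.13% of all WT counts and 0.827%, 0.862% and 0.507% of all sST2-KO counts. The groups did not overlap in this share. The replicate with the most liver transcripts was thus also the highest for these genes, and the one with the highest muscle and macrophage sums was the lowest.

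Of the 3 lipases, 1 fell past the test, and all 3 separated the groups without overlap. Pnpla2 (GRCm39 chromosome 7, 141034404 to 141040656, plus strand) stood at 2877, 5211 and 4912 CPM in the WT libraries and at 2237, 2058 and 919.7 CPM in the sST2-KO libraries. WT replicate 1 and sST2-KO replicate 1 were the nearest pair, and sST2-KO replicate 3 stood well below the rest. The mean went from 4333 ± 1270 CPM to 1738 ± 714 CPM (SD, n = 3), which is -1.32 ± 0.44 (SE) on the log2 scale and missed the threshold in edgeR (adjusted p = 0.0719) and passed it in DESeq2 (adjusted p = 0.00497). Annotated exons of Pnpla2 share 867 of 3936 bases with a long noncoding RNA gene on the opposite strand, and whether htseq-count was run by strand is not given in the sources used here.

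Lipe, the HSL gene, lies on chromosome 7 from 25078880 to 25098135 on the minus strand. It had 1164, 1714 and 1386 CPM in the WT libraries and 758, 1104 and 474.2 CPM in the sST2-KO libraries. The groups came close, since sST2-KO replicate 2 was only just below WT replicate 1. With means of 1421 ± 277 CPM and 779 ± 315 CPM (SD, n = 3), the log2 difference was -0.87 ± 0.36 (SE), with an adjusted p of 0.127 in edgeR and 0.0467 in DESeq2. Of its 5958 exon bases, 1326 overlap a noncoding gene on the opposite strand.

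Mgll was the lipase gene with the clearest separation. It lies on chromosome 6 from 88652108 to 88805342 on the plus strand, and had 433.6, 650.2 and 627.2 CPM in WT and 229.7, 267.1 and 139.8 CPM in sST2-KO BAT. The lowest WT value was well above the highest sST2-KO value. Its mean fell from 570.3 ± 119 CPM to 212 ± 65.4 CPM (SD, n = 3), which is 37.2% of the WT mean and -1.43 ± 0.31 (SE) on the log2 scale (adjusted p = 0.0231 by edgeR). Without WT replicate 2 or 3 the adjusted p was 0.0733 and 0.0894. A noncoding gene on the opposite strand covers 496 of its 6180 exon bases.

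The activator and the inhibitor of ATGL differed in how far they separated the groups. Abhd5, on chromosome 9 from 122180621 to 122222936 on the plus strand, had 195, 196 and 237 CPM in WT and 116.3, 93.98 and 68.63 CPM in sST2-KO BAT. Relative to its mean it had the tightest WT values of the 10 genes, with no overlap between the groups. The mean fell from 209 ± 24.0 CPM to 93.0 ± 23.9 CPM (SD, n = 3), or -1.17 ± 0.24 (SE) on the log2 scale (adjusted p = 0.0201 by edgeR). This call was lost without WT replicate 2 (adjusted p = 0.0566) and without WT replicate 3 (adjusted p = 0.0840). Noncoding genes on the opposite strand cover 1111 and 70 of its 7154 exon bases.

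G0s2, on chromosome 1 from 192949563 to 192956177 on the minus strand, had 155.3, 170.0 and 63.99 CPM in WT and 109.6, 153.4 and 39.60 CPM in sST2-KO BAT. Replicate 3 was the lowest of each group, and the groups overlapped widely. With means of 130 ± 57.4 CPM and 101 ± 57.4 CPM (SD, n = 3), the log2 difference was -0.36 ± 0.53 (SE), at an adjusted p of 0.656 by edgeR, and it was 0.01 without sST2-KO replicate 3. Only 119 of its 4558 exon bases overlap Lamb3, a laminin gene on the opposite strand that had 19.4 ± 15.1 CPM in WT and 4.06 ± 3.28 CPM in sST2-KO BAT (SD, n = 3).

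Of the 4 perilipin genes, all with a log2 fold change below 0, only Plin5 passed the test in edgeR. Plin1, the main droplet coat of adipocytes, lies on chromosome 7 from 79369966 to 79382718 on the minus strand and had 619.5, 1311 and 975.2 CPM in WT and 259.1, 554.6 and 192.9 CPM in sST2-KO BAT. The groups did not overlap, although sST2-KO replicate 2 approached WT replicate 1. From 969 ± 346 CPM to 335.5 ± 193 CPM (SD, n = 3), the log2 difference was -1.53 ± 0.46 (SE), just short of the threshold in edgeR (adjusted p = 0.0558) and past it in DESeq2 (adjusted p = 0.00412). Without sST2-KO replicate 2, the log2 difference was -2.12, with an adjusted p of 0.0288 in edgeR.

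Plin2, which coats droplets in most cell types, lies on chromosome 4 from 86565912 to 86588459 on the minus strand. Its values were 1588, 3591 and 2410 CPM in WT and 893.4, 1633 and 1113 CPM in sST2-KO BAT, so the groups overlapped by a narrow margin at WT replicate 1 and sST2-KO replicate 2. Means of 2530 ± 1007 CPM and 1213 ± 380 CPM (SD, n = 3) gave a log2 difference of -1.06 ± 0.40 (SE), with an adjusted p of 0.0983 in edgeR and 0.0211 in DESeq2. Neither Plin1 nor Plin2 shares exon bases with another annotated gene.

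Plin4 and Plin5 are neighbors on the minus strand of chromosome 17, and with all 6 libraries they gave the smallest and the largest log2 difference of the 10 genes. Plin4 lies from 56406617 to 56416931 and Plin5 from 56418446 to 56424610, with 1514 bases between them. Plin5, a perilipin of oxidative tissues that links droplets to mitochondria, had 175.1, 286.5 and 249.3 CPM in WT and 65.16, 59.93 and 13.92 CPM in sST2-KO BAT. Every sST2-KO value was far below the lowest WT value, and sST2-KO replicate 3 was lower still. The mean fell from 237 ± 56.7 CPM to 46.3 ± 28.2 CPM (SD, n = 3), which is 19.6% of the WT mean and -2.35 ± 0.54 (SE) on the log2 scale (adjusted p = 0.0266 by edgeR). The log2 fold change was -1.93 without sST2-KO replicate 3 (adjusted p = 0.0181), and the call was lost without WT replicate 2 (adjusted p = 0.0746) or WT replicate 3 (adjusted p = 0.0910). No other annotated gene overlaps its exons.

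Plin4, which coats droplets mainly in white adipocytes and muscle, had 1338, 2156 and 1840 CPM in WT and 1601, 1620 and 1015 CPM in sST2-KO BAT. Both sST2-KO replicates 1 and 2 lay inside the WT range. The means of 1778 ± 413 CPM and 1412 ± 344 CPM (SD, n = 3) gave a log2 difference of -0.33 ± 0.32 (SE), at an adjusted p of 0.492 by edgeR. For this gene 3124 of 7987 exon bases overlap Hdgfl2 on the opposite strand, which had 78.5 ± 4.02 CPM in WT and 63.1 ± 8.09 CPM in sST2-KO BAT (SD, n = 3). Muscle also expresses Plin4, and the part of the higher muscle markers in its sST2-KO values was not tested.

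The sequences just upstream of Plin5, Plin4 and Plin2 are shown because Plin5 and Plin4 sit side by side with unlike changes, and Plin2 is the perilipin whose upstream sequence also holds the nuclear receptor half-site found at Plin5. They come from the RefSeq promoter table (GRCm38.p6), were placed on GRCm39 by exact match and are limited to bases outside annotated exons: chr17:56424611-56424798, chr17:56416932-56417032 and chr4:86588460-86588546, each read 5′ to 3′ on the minus strand. Capitals mark AGGTCA or its reverse complement, the half-site that receptors such as the PPARs recognize, and CCAAT.
Plin5: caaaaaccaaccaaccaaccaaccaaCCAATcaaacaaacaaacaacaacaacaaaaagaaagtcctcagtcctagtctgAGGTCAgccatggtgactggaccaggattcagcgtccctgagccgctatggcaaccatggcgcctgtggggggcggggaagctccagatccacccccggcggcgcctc
Plin4: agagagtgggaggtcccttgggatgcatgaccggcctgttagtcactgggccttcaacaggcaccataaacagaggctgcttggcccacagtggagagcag
Plin2: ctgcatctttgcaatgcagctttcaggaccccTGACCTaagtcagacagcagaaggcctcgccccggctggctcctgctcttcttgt

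All 10 genes had an entry in that table, and Mgll, Cidec, Lipe and Plin5 had more than a single entry. A match in any entry counted for the gene, whereas the shares given beside the genes are per promoter. In the 250 bases before each annotated start, searched on both strands, AGGTCA occurred upstream of Plin2, Plin5 and Abhd5, against 14.0% of 32851 promoters of the same length. TGACG, the core of the cAMP response element, occurred upstream of G0s2 and Abhd5 (17.8% of promoters), CACGTG, an E-box, upstream of Mgll and Lipe (6.02%), and CCAAT upstream of Plin2, Plin4 and Plin5 (33.8%). The windows follow the starts in the promoter table and can lie within annotated exons. Such exons filled all 250 bases of the windows that held CACGTG at Mgll and Lipe. The CCAAT matches at Plin2 and Plin4, with first bases at -73 and -18, also lay in annotated exons, outside the stretches shown. So did another match at Plin5, with its first base at -62. The CCAAT shown at Plin5, with its first base at -224, directly follows a run of repeated ccaa. The full element TGACGTCA (1.55%), which contains TGACG, the C/EBP palindrome TTGCGCAA (0.164%) and TATAAA (12.4%) were found upstream of none of the 10. Each of the 4 motifs found stood upstream of at least 1 gene that fell and at least 1 that did not pass the test. A match describes letters in a window and is not a measured binding site.

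Cidec, whose product makes small droplets merge into large ones and which is typical of white fat, lies on chromosome 6 from 113400691 to 113412721 on the minus strand. It had 948.8, 1549 and 1067 CPM in WT and 1148, 804.7 and 490.1 CPM in sST2-KO BAT. The value of sST2-KO replicate 1 exceeded those of WT replicates 1 and 3. Means of 1188 ± 318 CPM and 814 ± 329 CPM (SD, n = 3) gave a log2 difference of -0.55 ± 0.37 (SE), at an adjusted p of 0.330 by edgeR. A noncoding gene on the opposite strand overlaps 282 of its 3090 exon bases.

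**Figure D2:**
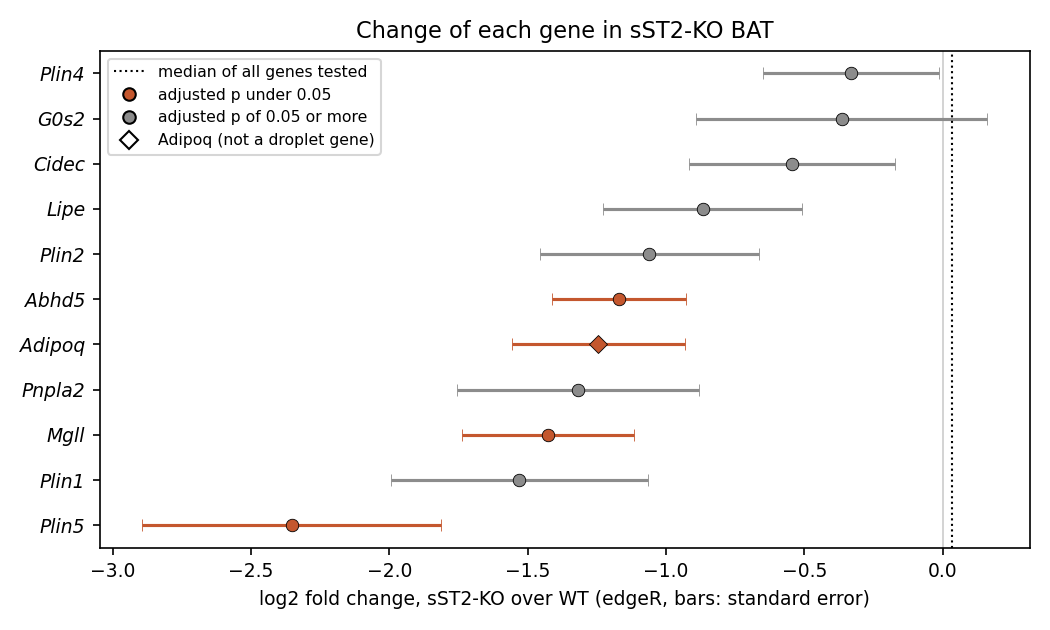
Log2 fold change of each gene in sST2-KO over WT BAT from edgeR (points) with its standard error (bars), with Adipoq as a diamond, orange for an adjusted p under 0.05 and a dotted line at the median of all genes tested. Plin5 lies lowest at -2.35, and Plin4, G0s2 and Cidec lie between -0.55 and -0.33.

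The size of these differences depends on the scaling. TMM factors were 0.825 to 0.996 in WT and 1.03 to 1.14 in sST2-KO libraries. With scaling by total counts instead, the median log2 fold change of all genes moved to 0.29 and that of the 10 genes to -0.85, so their distance from the median of all genes stayed close to the same size. All 10 remained below 0, with Plin4 at -0.07 and G0s2 at -0.16, and Mgll, Abhd5 and Plin5 kept an adjusted p under 0.05, but Abhd5, at -0.90, was no longer past 2-fold, which left 2 genes. That scaling raised the share of higher genes among all genes called from 53.5% to 71.0%.

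Per kilobase of the canonical transcript, Pnpla2 and Plin2 were the most abundant of the 10 mRNAs in both groups. In WT BAT they had mean levels of 2102 ± 616 and 1234 ± 491 CPM per kb (SD, n = 3), and their ranges overlapped although Pnpla2 was higher in all 3 libraries. A gap followed, with no overlap between Plin2 and Cidec (415 ± 111 CPM per kb). Cidec, Lipe (363 ± 70.6), Plin1 (323 ± 115) and Plin4 (239 ± 55.4 CPM per kb) then overlapped from neighbor to neighbor. Next came Mgll (155 ± 32.4), Plin5 (105 ± 25.2), G0s2 (76.5 ± 33.9) and Abhd5 (65.2 ± 7.46 CPM per kb), each overlapping the next. Plin4 and Mgll did not overlap, but only by a narrow margin. Plin4 had 179.6 CPM per kb in WT replicate 1, and Mgll had 176.9 CPM per kb in WT replicate 2. The level of ATGL mRNA thus lay above those of both its activator and its inhibitor in every library.

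In sST2-KO BAT the order of the means at the top was the same, with Pnpla2 at 843 ± 347, Plin2 at 592 ± 185, Cidec at 285 ± 115 and Lipe at 199 ± 80.5 CPM per kb (SD, n = 3). Pnpla2 was above Plin2 in 2 of the 3 libraries and Cidec above Lipe in 2 of 3, with overlapping ranges. Plin4 at 189.5 ± 46.2 CPM per kb came next and did not differ from Lipe beyond the spread, since Lipe was the higher in only 1 library. It was above Plin1 at 112 ± 64.2 CPM per kb in all 3 libraries, the reverse of their order in all 3 WT libraries. G0s2 (59.5 ± 33.8) and Mgll (57.7 ± 17.8 CPM per kb) overlapped. Plin5 dropped from the eighth place to the last, with 20.6 ± 12.5 CPM per kb, below Abhd5 (29.0 ± 7.43 CPM per kb) in all 3 libraries although their ranges overlapped. In WT BAT Plin5 had been the higher of the pair.

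Ratios of counts within a library do not depend on the scaling between libraries. Among 19 ratios compared, 9 between the 10 genes and 10 against Adipoq, the adiponectin gene of adipocytes, 4 separated the groups without overlap. A ratio without a group difference would do so with a probability of 0.1, and the share among other gene pairs was not computed. The 19 ratios share genes, such as Adipoq in 10 of them, so they do not vary independently. The 4 of 19 can therefore not be read directly against 0.1. With 3 libraries against 3, the smallest p that the exact two-sided permutation test can give is 0.1, and after adjustment over the 19 ratios it was 0.422, so no ratio could pass the threshold. Plin4 stood at 2.16, 1.64 and 1.89 times the counts of Plin1 in the WT libraries and at 6.18, 2.92 and 5.26 times in the sST2-KO libraries. This is a difference of 1.27 in the mean log2 ratio (exact permutation p = 0.1). The ratio of Plin2 to Plin1 was 2.56, 2.74 and 2.47 in WT and 3.45, 2.94 and 5.77 in sST2-KO, a difference of 0.58 (exact permutation p = 0.1). In both ratios the 3 WT libraries were close together, and the sST2-KO libraries were all higher and more scattered.

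Adipoq itself fell, with 1043, 1227 and 1509 CPM in WT and 516.7, 703.1 and 374.9 CPM in sST2-KO BAT (-1.24 ± 0.31 (SE) on the log2 scale, adjusted p = 0.0335 by edgeR). For 8 of the 10 genes the ratio to it overlapped between the groups. For Pnpla2 the ratio was 2.76, 4.25 and 3.25 in WT and 4.33, 2.93 and 2.45 in sST2-KO, a difference of -0.10 in the mean log2 ratio (exact permutation p = 0.8). The differences for Abhd5 (0.08), Mgll (-0.18), Plin2 (0.25), Plin1 (-0.34) and Lipe (0.34) were also within overlapping groups, with exact permutation p from 0.2 to 0.8. Those of Cidec (0.68, p = 0.2) and G0s2 (0.83, p = 0.3) were larger, and the groups of the exact permutation test still overlapped. Adipoq fell more than the median of the 12 adipocyte markers (-0.785). With the sum of these markers as reference, the differences were all lower: -0.26 for Pnpla2, -0.09 for Abhd5, -0.345 for Mgll, 0.08 for Plin2, -0.50 for Plin1 and 0.18 for Lipe. Those of Cidec and G0s2 were 0.51 and 0.66. Adipoq was itself part of the summed reference, and a few abundant genes made up most of it. Fabp4, Lpl and Cfd, named after their values were seen, had 9717, 6911 and 3476 of its 22230 CPM in WT replicate 1.

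The ratio to Adipoq separated the groups for the perilipin neighbors, in opposite directions. Plin5 stood at 0.168, 0.234 and 0.165 times Adipoq in WT and at 0.126, 0.0852 and 0.0371 times in sST2-KO, a difference of -1.34 in the mean log2 ratio (exact permutation p = 0.1). For Plin4 the ratio was 1.28, 1.76 and 1.22 in WT and 3.10, 2.30 and 2.71 in sST2-KO, a difference of 0.94 (exact permutation p = 0.1). Relative to Adipoq, Plin5 was lower and Plin4 higher in all 3 sST2-KO libraries. With the summed adipocyte markers as reference, the differences were -1.50 for Plin5 and 0.77 for Plin4.

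**Figure D3:**
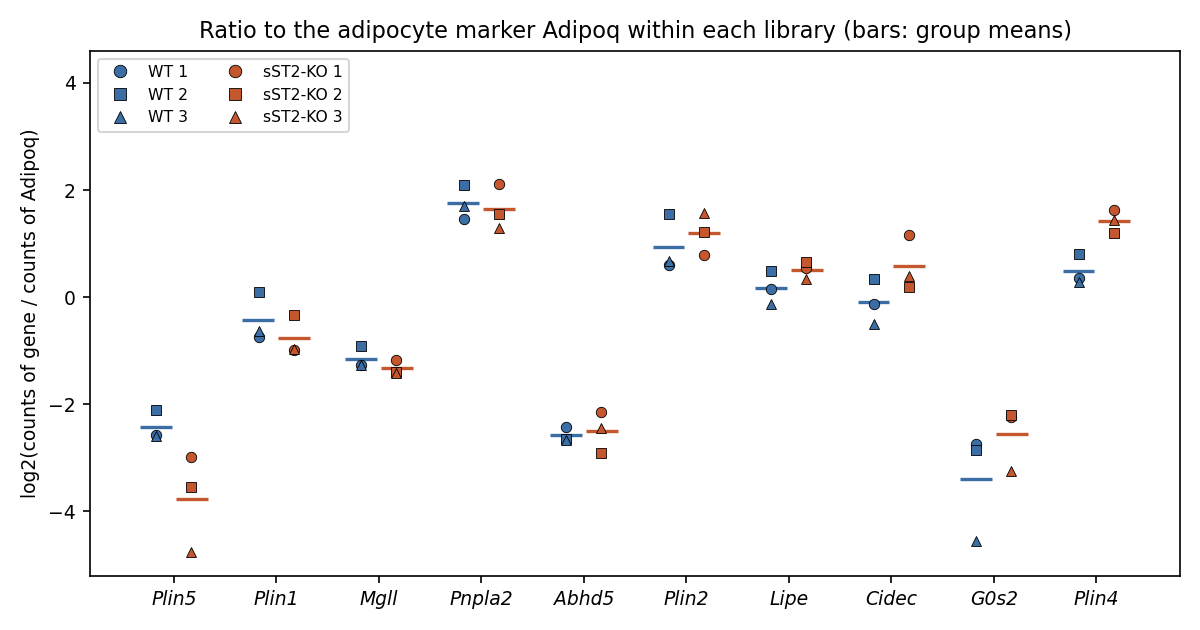
Log2 ratio of each gene's counts to those of Adipoq in each library, with WT in blue, sST2-KO in orange and bars at the group means, ordered by the difference between groups. The groups do not overlap for Plin5 at the left end (difference -1.34) and Plin4 at the right end (0.94).

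Within the lipolytic pathway the ratios to Pnpla2 overlapped between the groups. The difference in mean log2 ratio was 0.93 for G0s2 (exact permutation p = 0.3), 0.44 for Lipe (p = 0.2), 0.18 for Abhd5 (p = 0.6) and -0.08 for Mgll (p = 0.9). The ratio of G0s2 to Pnpla2 was 0.0540, 0.0326 and 0.0130 in WT and 0.0490, 0.0745 and 0.0430 in sST2-KO, so WT replicate 1 was above 2 of the 3 sST2-KO libraries. G0s2 against Abhd5, the inhibitor against the activator, differed by 0.75 (exact permutation p = 0.4). Against Plin1, the differences were -1.003 for Plin5 and 1.02 for Cidec, each with an exact permutation p of 0.2.

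Seen as the makeup of the perilipin family per kilobase, a summary chosen after the values were seen and given without a test, Plin2 supplied most perilipin mRNA in both groups, at 63.8 ± 2.78% in WT and 64.0 ± 7.72% in sST2-KO BAT (SD, n = 3). Plin1 made up 16.4%, 16.7% and 17.4% in WT and 11.1%, 14.9% and 8.46% in sST2-KO. The share of Plin4 was 14.3%, 11.1% and 13.2% in WT and 27.6%, 17.6% and 17.9% in sST2-KO. Plin5 made up 6.19%, 4.86% and 5.92% in WT and 3.72%, 2.15% and 0.814% in sST2-KO, and Plin3 was a minor part throughout (0.482% to 1.52%). The groups did not overlap for Plin1, Plin4 and Plin5. The shares of a library add up to a whole, so they do not vary independently, and no background for this count was computed.

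**Figure D4:**
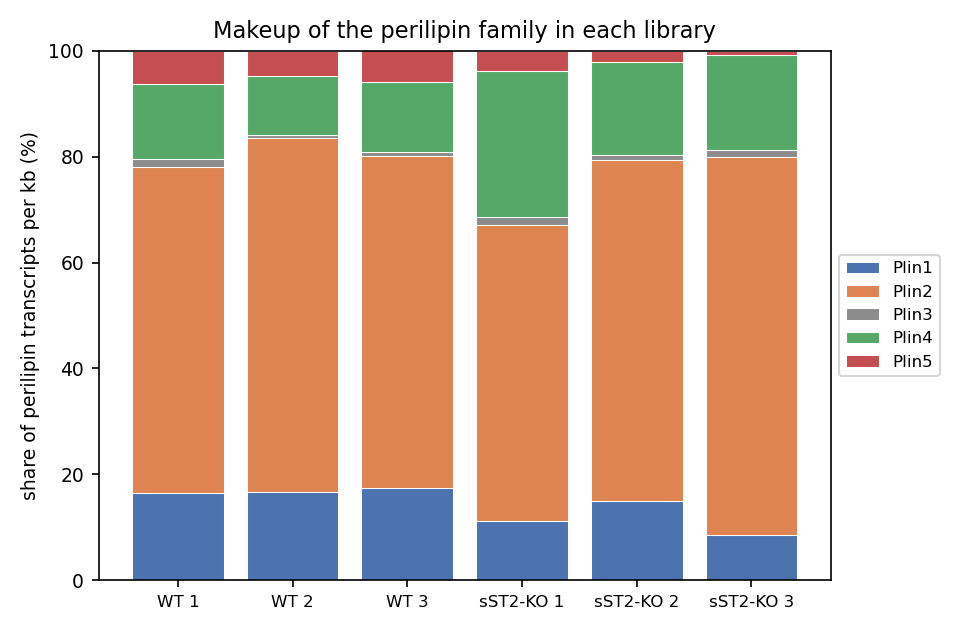
Share of Plin1 to Plin5 in the summed perilipin CPM per kb of each library, in percent. The Plin4 segment is between 11.1% and 14.3% in WT and between 17.6% and 27.6% in sST2-KO libraries, and the Plin5 segment at the top is narrower in every sST2-KO library.

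The wider pathway was described with 5 lists that do not contain the 10 genes, although Cidea and Ppargc1a are also among the brown adipocyte markers and Fabp4, Pparg, Cebpa and Adrb3 among the adipocyte markers. Of 11 further lipases and ATGL regulators tested, 6 fell and none rose, with a median log2 fold change of -0.93. The largest falls were in Ces1d (-3.19, adjusted p = 0.0148 from edgeR) and Ces1f (-2.53, adjusted p = 0.0122), which encode carboxylesterases that can hydrolyze triglyceride, and in Ddhd2 (-2.03, adjusted p = 0.0151), a lipase best known from neurons. Ces1d had 591.2, 920.0 and 963.5 CPM in WT and 72.76, 157.5 and 40.59 CPM in sST2-KO BAT. Hilpda, another inhibitor of ATGL and named after its values were seen, lay on the other side, with 19.8, 70.3 and 40.7 CPM in WT and 62.8, 144 and 131 CPM in sST2-KO. Its log2 fold change was 1.37, with an adjusted p of 0.0860 in edgeR and 0.0286 in DESeq2. The groups overlapped for Hilpda at WT replicate 2.

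Among 18 other lipid droplet proteins tested, 4 fell and 1 rose, with a median log2 fold change of -0.37. The largest falls on the log2 scale were in Cidea (-3.37, adjusted p = 0.0183 by edgeR), the brown fat relative of Cidec, Cideb (-2.31, adjusted p = 0.0366) and Fitm2 (-1.82, adjusted p = 0.0206), which acts in droplet formation at the endoplasmic reticulum. Fitm1, its relative of skeletal muscle, rose by 3.34 (adjusted p = 0.0237), from 0.247 to 1.12 CPM in WT to 3.32 to 14.5 CPM in sST2-KO libraries, with its highest value in sST2-KO replicate 3, where muscle markers summed to 17050 CPM. Cideb, which is typical of liver, was highest in WT replicate 2, at 15.6 CPM against 5.04 and 3.70 CPM in WT replicates 1 and 3. The part of muscle and liver RNA in these values was not tested.

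Of 24 genes of hormone and cAMP control, 8 fell and 2 rose, with a median log2 fold change of -0.42. The largest falls were in Adcy3 (-3.09, adjusted p = 0.0136 from edgeR), an adenylyl cyclase, Prkar2b (-2.16, adjusted p = 0.0150), the main regulatory subunit of protein kinase A in adipocytes, and Npr3 (-1.76, adjusted p = 0.0154), the clearance receptor for natriuretic peptides. Pde4b, a phosphodiesterase that breaks down cAMP, rose by 1.61 (adjusted p = 0.0169), whereas Pde3b (-1.39, adjusted p = 0.0191) and Pde4d (-1.53, adjusted p = 0.0389), phosphodiesterases named after their values were seen, fell. Hcar2, a receptor that lowers cAMP and is also found on macrophages and neutrophils, rose by 1.48 (adjusted p = 0.0424). Hcar2 was highest in sST2-KO replicate 3, at 60.2 CPM, the library with the highest macrophage sum.

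Fatty acid and glycerol handling had the lowest median of the 5 lists, -1.88, and 8 of 12 genes tested fell while none rose. The largest falls on the log2 scale were in the fatty acid transporter and acyl-CoA synthetase gene Slc27a2 (-3.73, adjusted p = 0.0135 by edgeR), the thioesterase gene Acot11 (-3.04, adjusted p = 0.0136) and Fabp3 (-2.25, adjusted p = 0.0238), which encodes a fatty acid binding protein of oxidative tissues. Slc27a2 had 401.7, 421.3 and 711.7 CPM in WT and 43.98, 57.08 and 14.32 CPM in sST2-KO BAT. Of 11 transcription factors and cofactors known to act on lipolysis genes, 2 fell and none rose, with a median of -0.64: Irf4 (-3.14, adjusted p = 0.0398) and Ppargc1a (-2.20, adjusted p = 0.0167). The fall of Irf4, a factor that drives lipase genes on fasting, includes a single high value of 1418 CPM in WT replicate 3, against 147.3 and 225.2 CPM in the other WT libraries and 53.2 to 78.6 CPM in sST2-KO. For all 5 lists, counts of falls are to be read against the 9.10% of all genes called lower and counts of rises against the 10.5% called higher.

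**Figure D5:**
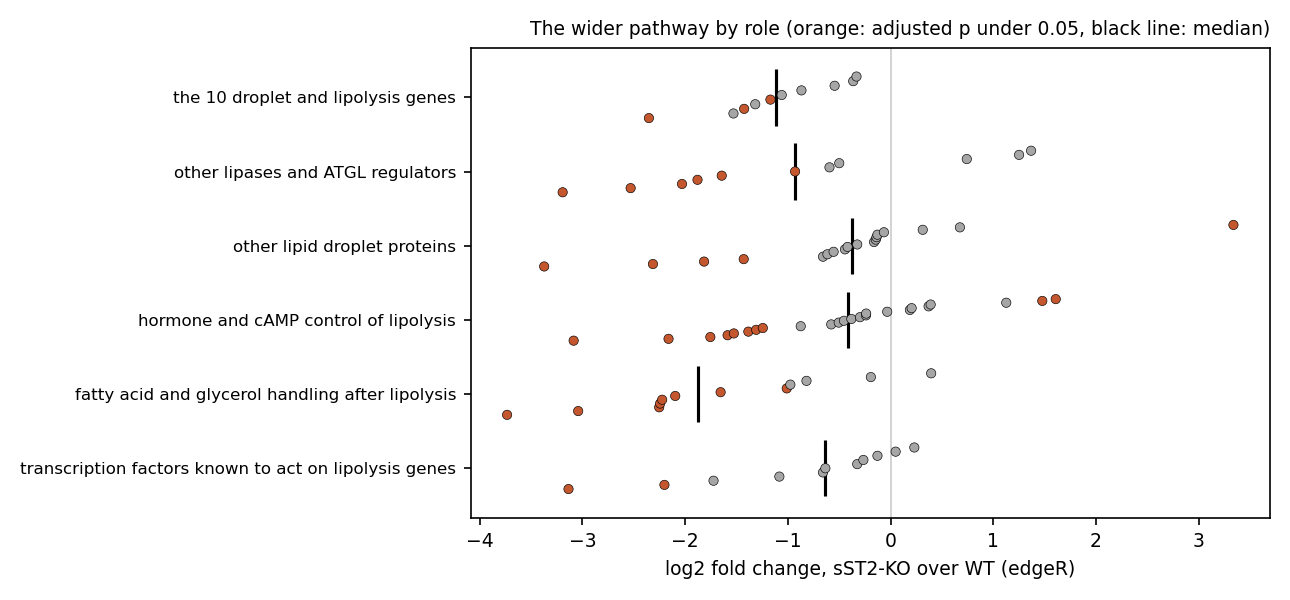
Log2 fold change in sST2-KO over WT BAT (edgeR) of the 10 genes and of each gene in the 5 further lists, with orange points for an adjusted p under 0.05 and a black line at each median. Medians run from -1.88 for fatty acid and glycerol handling to -0.37 for other lipid droplet proteins, with Fitm1 at 3.34 as the highest point.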

How the data were processed

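BAT RNA from 3 WT and 3 sST2-KO mice was sequenced by the study as poly-A-selected paired-end libraries. The authors deposited raw counts per gene symbol, made with htseq-count from reads aligned to mm39 with HISAT2 2.2.1 after FastQC 0.12.1 (versions from the submitters' processing notes). The version and strand setting of htseq-count are not given in the sources used here. Where a gene overlaps another on the opposite strand, reads of the 2 genes may therefore not have been told apart. The table has 35976 rows, of which 11377 hold no count.

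Libraries were grouped by their sample titles. Counts were tested in R 4.3.3 with edgeR 4.0.16 (filterByExpr, TMM, glmQLFit and glmQLFTest, no covariate), two-sided, with Benjamini-Hochberg adjustment over 14542 genes and a threshold of 0.05. The standard error is the log2 fold change divided by the square root of F. The common biological coefficient of variation was 0.325. The steps were tested on simulated data. Libraries of 1 group differed by more than sampling noise. Labels do not say more of the replicates than their number, and the p-values measure the spread between these mice. The study's methods name DESeq2, which was run as an alternative (version 1.42.0). Other settings tried were a block for the replicate number, scaling by RLE or by total counts, a minimum of 10 counts per library, no filter, robust estimation and leaving out each library. Replicate numbers were not shown to pair the mice. Libraries with the same number deviated from their group means with correlations of -0.06, 0.21 and -0.31, which cannot exclude a pairing.

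Ratios of counts were compared by exact permutation over all 20 relabellings, with adjustment over 19 ratios. Other settings for the ratios were 1 count added to both genes, the summed adipocyte markers in place of Adipoq, and leaving out each library. Coordinates, transcript lengths and overlaps are from GENCODE M39 on GRCm39. The 10 genes, the lists and the marker lists were chosen with earlier results of these data known, and are not independent evidence of a direction. Genes were named by a rule: the 10 genes, Il1rl1, Adipoq, Ucp1, Zic1, at most the 3 largest rises and 3 largest falls past the threshold in each list, and the 5 genes most like the 10 genes' mean. Alb, and other genes so marked, were named after their values were seen, and Hdgfl2 and Lamb3 for their overlap. Python 3.11.15 with matplotlib 3.10.9 drew the figures. The values of 1 gene in the lists are not reported here.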

Additional observations from a re-analysis of the deposited data

How the results depend on the processing

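DESeq2 called 7 of the 10 genes lower in place of 3, and 6 in place of 3 when more than 2-fold was asked, and the counts at an unadjusted p under 0.05 were the same, 7 and 6. With the replicate block, edgeR called 0 of the 10 lower, with or without the fold minimum, and 0 genes of all, and 7 of the 10 were lower at an unadjusted p, against 15.0% of all genes. The block left 2 residual degrees of freedom in place of 4, and the replicate numbers were not shown to pair the mice. Scaling by total counts left 2 genes past the fold minimum. Leaving out each library in turn gave 0 to 4 genes lower, and also 0 to 4 with the fold minimum. Both zeros came without WT replicate 2, where 483 of all genes were called lower, and without WT replicate 3, where 22 were, in place of 1323. The log2 fold change of G0s2 ran from -0.82 to 0.014 over the libraries left out and turned above 0 without sST2-KO replicate 3. Mgll, Abhd5 and Plin5 lost their calls under the block and without WT replicate 2 or 3, at adjusted p of at most 0.0894, 0.0840 and 0.0910. Plin1 gained a call with DESeq2, with no filter and without sST2-KO replicate 2, and Pnpla2, Lipe and Plin2 with DESeq2. The median log2 fold change of the 10 stayed between -1.29 and -0.85, and 0 of the 10 were called higher under any setting run. Of 143 values of the ratios under other settings, 8 in 4 ratios had the other sign, and all moved by less than 1 SD. At 141 or more counts for each gene in each library, the spread between mice and not the depth set the precision.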

Other observations

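Over the 6 libraries, the mean of the 10 genes' centred log2 CPM was 0.27, 0.92 and 0.56 for WT and -0.35, -0.13 and -1.26 for sST2-KO, from replicate 1 to replicate 3. Of 11871 genes whose mean log2 CPM reached 2, 1015 followed this profile with a Pearson r above 0.9, a description over 6 libraries that share the difference between groups. The closest were Alad (r = 0.999), a heme synthesis enzyme, Pomgnt2 (r = 0.998), a glycosyltransferase, Acad10 (r = 0.997), an acyl-CoA dehydrogenase family member, Itih4 (r = 0.996), a secreted protein typical of liver, and Eci3 (r = 0.996), an enoyl-CoA isomerase. Alad had 43.5, 67.1 and 53.4 CPM in WT and 26.0, 32.6 and 14.5 CPM in sST2-KO BAT. Itih4 was highest in WT replicate 2, at 346 CPM against 118 and 189 CPM in WT replicates 1 and 3, the library with 3192 CPM of Alb.

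Among the 10 genes themselves, Plin5 varied most closely with Pnpla2 (r = 0.981 over the 6 libraries) and Mgll (r = 0.980), and Lipe with Plin1 (r = 0.976). G0s2 was the least like the others, with r from 0.356 with Plin2 to 0.675 with Lipe.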
